A study of Homo sapiens with 10 samples.

Results

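The 6 genes described here are 3 COUP-TF nuclear receptor genes (NR2F1, NR2F2 and NR2F6), the antisense RNA genes beside 2 of them (NR2F1-AS1 and NR2F2-AS1), and NR2E1, which encodes the receptor also called TLX. They were chosen by gene symbol from the 42335 symbols of the deposited table, with their levels in these same libraries already known. Their levels and differences are therefore given as a description, with no test of their own. Calls they got in the fit of all genes are listed, but not read as evidence. All 6 symbols were found, and 4 of the 6 (NR2F1, NR2F2, NR2F6 and NR2E1) passed the filter on low values used for the fit, which asks for 1 FPKM or more in 2 or more libraries. FPKM is the number of sequenced fragments scaled by transcript length and by library size, so levels of different genes can be compared.

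The study followed H9 cells, an established human embryonic stem cell line, through neural differentiation by bulk RNA sequencing. Wild-type cells (Ctrl) and cells with the genotype label SOX1-OT V1 PAKI (V1PAKI) each gave 1 library at day 0 (d0), day 4 (d4), day 10 (d10) and in 2 arms at day 16 (d16D and d16V), 10 libraries in all. The labels do not spell out PAKI, D or V, and do not say how many clones the V1PAKI cells came from. Per the labels' protocols, cell clumps were floated as embryoid bodies without FGF-2, were moved to a neural medium on day 4 and were plated on day 7. For a ventral telencephalic fate, Shh protein and SAG, a small molecule agonist of Smoothened, were added from day 10. With 1 library per line and stage, and no label that marks separate cultures, the spread between repeats of a culture is unknown. Any standard error given here rests on how far stage differences disagree between the lines.

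COUP-TFs are orphan nuclear receptors that bind repeats of a short DNA half-site, mostly as repressors of transcription. In the developing forebrain NR2F1 is known for setting up caudal and lateral identities of the cortex, and NR2F2 for the caudal ganglionic eminence and for mesenchyme and veins outside the brain. NR2E1 binds a related half-site as a repressor and is known for keeping forebrain neural stem cells and retinal progenitors dividing. NR2F6 is a more widely expressed relative.

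Per the GENCODE 29 annotation of GRCh38, NR2F1 (ENSG00000175745.12) lies on the plus strand at chr5:93583224-93594615 and NR2F1-AS1 (ENSG00000237187.8) on the minus strand at chr5:93409359-93585648. The stretch they share, chr5:93583224-93585648, is 2425 bases long and holds 158 bases that are exonic in both, 3.66% of the exonic bases of NR2F1. NR2F2 (ENSG00000185551.14) lies on the plus strand at chr15:96325938-96340263 and NR2F2-AS1 (ENSG00000247809.7) on the minus strand at chr15:96110040-96327361. They share 1424 bases but 0 exonic bases. NR2F6 (ENSG00000160113.5) is on the minus strand at chr19:17231883-17245940, and NR2E1 (ENSG00000112333.11) on the plus strand at chr6:108166058-108188809. Whether fragments were assigned by strand is not stated in the labels or the table. In the shared stretches a gene and its antisense partner therefore cannot be told apart.

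The genes at the 4 transcript starts below went from near 0 to their highest levels along the differentiation, as did NR2F2 and NR2F1-AS1. For NR2F2-AS1 the highest level was only 0.607 FPKM. The sequences before these 4 starts are shown, each with a match to a motif searched for. Each runs 5′ to 3′ on the strand of its gene over the 250 bases before a RefSeq start (GRCh38.p14), and capitals mark a match to a motif named after them.
NR2F1, chr5:93582972-93583221, plus strand: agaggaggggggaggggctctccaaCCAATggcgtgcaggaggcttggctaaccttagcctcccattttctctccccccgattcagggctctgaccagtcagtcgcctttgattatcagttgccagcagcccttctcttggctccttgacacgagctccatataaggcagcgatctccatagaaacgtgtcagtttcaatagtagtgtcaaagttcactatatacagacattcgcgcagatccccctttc
NR2E1, first start, chr6:108165772-108166021, plus strand: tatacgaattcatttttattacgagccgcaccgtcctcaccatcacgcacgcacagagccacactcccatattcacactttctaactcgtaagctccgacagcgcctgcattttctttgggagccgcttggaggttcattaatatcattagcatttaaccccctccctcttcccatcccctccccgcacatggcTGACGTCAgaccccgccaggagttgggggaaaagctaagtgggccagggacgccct
NR2E1, second start, chr6:108167773-108168022, plus strand: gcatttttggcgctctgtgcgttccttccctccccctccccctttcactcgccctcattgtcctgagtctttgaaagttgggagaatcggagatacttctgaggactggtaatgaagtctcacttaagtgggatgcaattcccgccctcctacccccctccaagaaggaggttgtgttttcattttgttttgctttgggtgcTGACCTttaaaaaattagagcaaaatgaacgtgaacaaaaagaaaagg
NR2F2-AS1, chr15:96327362-96327611, minus strand: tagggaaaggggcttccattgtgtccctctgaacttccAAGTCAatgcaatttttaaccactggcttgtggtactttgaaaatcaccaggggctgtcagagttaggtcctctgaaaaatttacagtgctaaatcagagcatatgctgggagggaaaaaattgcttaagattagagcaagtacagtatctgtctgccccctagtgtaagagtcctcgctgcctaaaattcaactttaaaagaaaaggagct

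The window searched ran from 250 bases before to 50 bases after a start, on both strands, and 13 such windows were at hand for 5 of the 6 genes, with none for NR2F6. The COUP-TF half-site AGGTCA matched 1 of the 13 windows, that of the second NR2E1 start, 48 bases before it and on the opposite strand, so that it reads as TGACCT in the line above. This half-site is in 13.8% of all 35116 windows of RefSeq starts. The NR2E1 half-site AAGTCA (12.5% of all windows) was found 212 bases before the NR2F2-AS1 start, and the cyclic AMP response element TGACGTCA (1.85%) 56 bases before the first NR2E1 start. A CCAAT box (34.6%) lay 225 bases before the NR2F1 start and in 3 other windows, those of NR2F2, of NR2F1-AS1 and of the other NR2F2-AS1 start. The homeodomain letters TAATTA (4.84%), the octamer ATGCAAAT (1.77%) and the GLI letters GACCACCCA (0.236%) matched 0 of the 13 windows. None of these motifs overlapped another in the windows shown. A match is a description of the letters only.

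The 8 markers of pluripotent stem cells all reached 1 FPKM up to d10, and their summed level lay between 1124 and 1234 FPKM at d0 and d4 in both lines, although the d4 libraries are labelled as neural progenitors. Of 8 neural progenitor markers 4 reached 1 FPKM at d4, and 8 did so at day 16 in both lines and arms. Markers of other tissues were high in single libraries. The 10 mesenchyme markers summed to 752 FPKM at Ctrl d10 and 169 at V1PAKI d10, to 183 and 1131 FPKM at d16D, and to 298 and 9.63 FPKM at d16V. The 9 endoderm markers summed to 224 and 36.6 FPKM at d10, 417 and 2380 FPKM at d16D, and 250 and 22.2 FPKM at d16V. V1PAKI d16D had the highest sum in both lists, with 10 of 10 mesenchyme and 9 of 9 endoderm markers at 1 FPKM or more. Ctrl d10 had 10 of 10 and 7 of 9 at that level. At d0 the mesenchyme markers COL3A1, LUM and DCN were listed at 0 in both lines. Other lists varied too. Trophoblast and amnion markers (8 genes) summed to 293 FPKM at Ctrl d10 and 166 at V1PAKI d16D, against 2.65 to 71.6 FPKM in the other 8 libraries. Endothelial markers (8 genes) ranged from 3.44 to 41.6 FPKM and neural crest markers (6 genes) from 16.7 to 46.6 FPKM. SOX1-OT, the RNA named in the genotype, stood at 1.87 FPKM (Ctrl) and 0.212 (V1PAKI) in d16D, and at 3.51 and 1.22 FPKM in d16V.

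**Figure D1:**
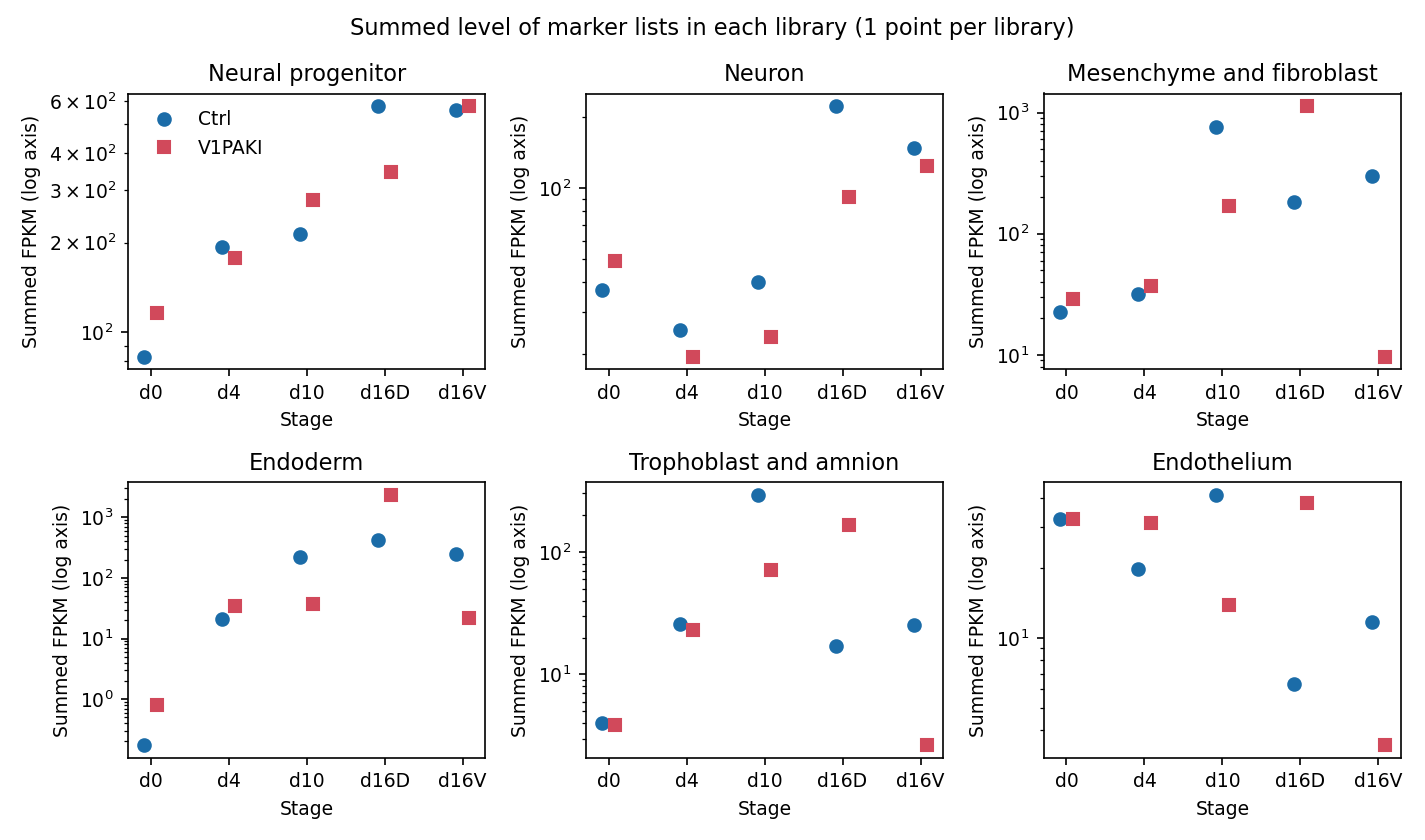
Summed FPKM (log axis) of 6 marker lists by stage, with 1 point per library, circles for Ctrl and squares for V1PAKI. The V1PAKI d16D library has 1131 FPKM of mesenchyme and 2380 FPKM of endoderm markers, and V1PAKI d16V has 9.63 and 22.2 FPKM.

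NR2F1, the COUP-TF of caudal and lateral cortex, was listed at 0 in both stem cell libraries and reached its highest level at d16D. In Ctrl it was at 0 FPKM at d0, 0.139 at d4, 7.52 at d10, 36.0 at d16D and 21.0 at d16V. In V1PAKI it was at 0 FPKM at d0, 0 at d4, 7.56 at d10, 43.9 at d16D and 25.8 at d16V. Both lines gave the same order of stages, and from d4 on the 2 libraries of a stage did not overlap with those of the next in that order. From d10 to d16D its level was 4.79-fold higher in Ctrl and 5.81-fold higher in V1PAKI, and from d10 to d16V it was 2.79-fold and 3.41-fold higher. Against d16D its level at d16V was 1.71-fold lower in Ctrl and 1.70-fold lower in V1PAKI. The fitted differences on the log2(FPKM + 1) scale were 0.094 (SE 0.20) from d0 to d4, 3.0 (SE 0.20) from d4 to d10, 2.26 (SE 0.20) from d10 to d16D, 1.51 (SE 0.20) from d10 to d16V and -0.75 (SE 0.20) from d16D to d16V. In bulk RNA, more cells that make a transcript and more transcript per cell cannot be told apart.

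**Figure D2:**
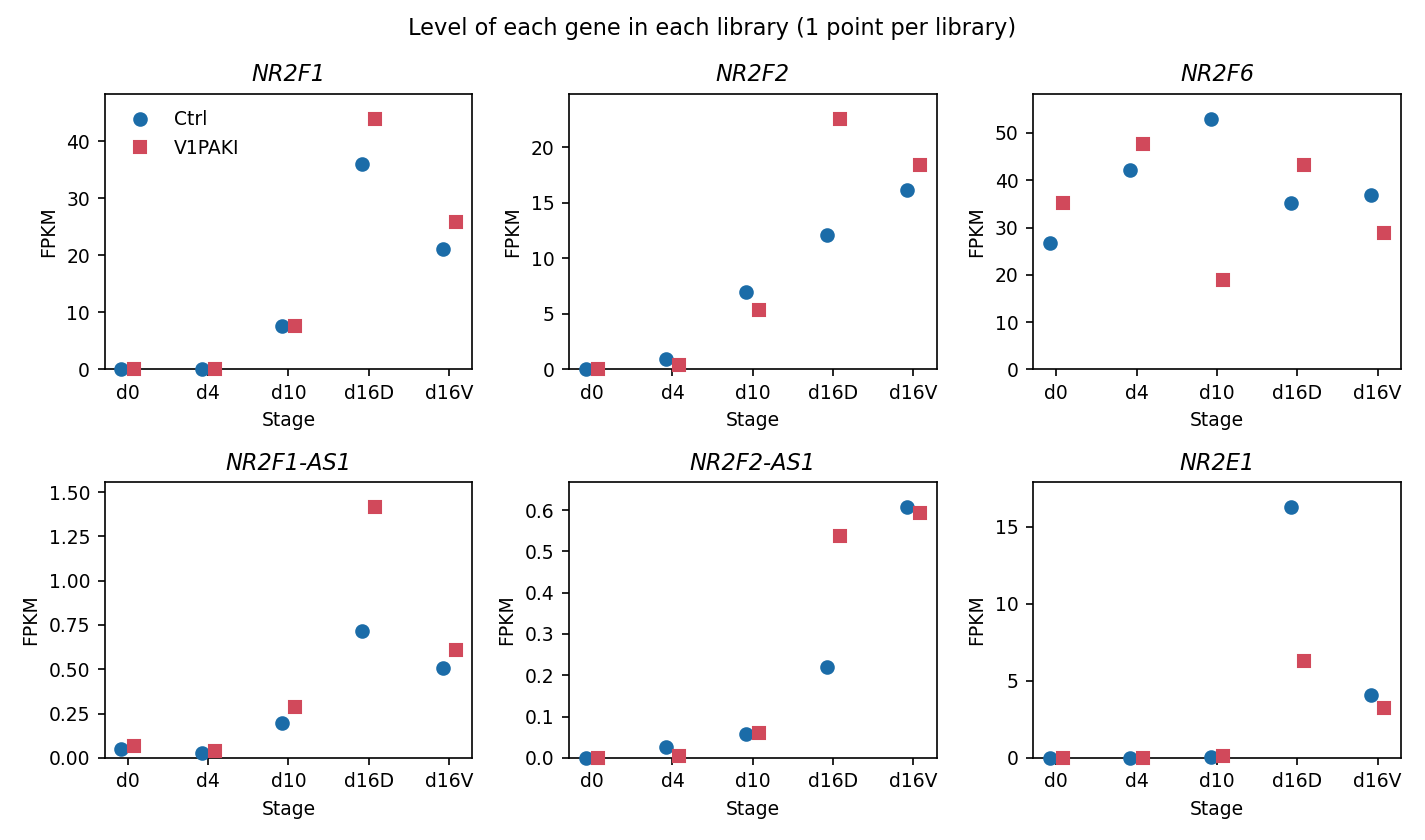
FPKM of each gene by stage, with 1 point per library, circles for Ctrl and squares for V1PAKI, each panel on its own axis from 0. NR2F1 and NR2E1 are highest at d16D and lower at d16V in both lines, while NR2F6 ranges from 18.9 to 53.1 FPKM with no shared order of stages.

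NR2F2, the COUP-TF known from the caudal ganglionic eminence and from mesenchyme, was above NR2F1 at d4 in both lines, though under 1 FPKM. Both genes first reached 1 FPKM at d10. NR2F2 was at 0.00497 FPKM at d0, 0.937 at d4, 6.99 at d10, 12.1 at d16D and 16.2 at d16V in Ctrl. In V1PAKI it was at 0.00195 FPKM at d0, 0.397 at d4, 5.37 at d10, 22.6 at d16D and 18.4 at d16V. The stages d0, d4 and d10 did not overlap, whereas both d16V libraries lay between the d16D libraries, so the arms had no order for this gene. NR2F2 was higher at d16V than at d16D in Ctrl (1.33-fold) and lower in V1PAKI (1.23-fold). Its fitted differences were 0.71 (SE 0.31) from d0 to d4, 2.12 (SE 0.31) from d4 to d10, 1.30 (SE 0.31) from d10 to d16D, 1.35 (SE 0.31) from d10 to d16V and 0.053 (SE 0.31) between the arms.

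Mesenchyme markers stood high where NR2F2 was highest, in V1PAKI d16D. Without that library the NR2F2 difference from d10 to d16D was 0.80 instead of 1.30, and that between the arms 0.55 instead of 0.053. Without Ctrl d16D they were 1.80 and -0.45. In V1PAKI d16V, where 4 of 10 mesenchyme markers and 1 of 8 endothelial markers reached 1 FPKM, NR2F2 stood at 18.4 FPKM. At Ctrl d10, with 752 FPKM of mesenchyme markers, it stood at 6.99 FPKM. Beyond these values the part of other cell types in its level was not tested.

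The balance of both receptors differed between the arms more in Ctrl than in V1PAKI, with no test possible on 1 library each. NR2F1 was 2.97 times NR2F2 at d16D and 1.30 times at d16V in Ctrl, and 1.95 and 1.41 times in V1PAKI. At d10 the ratio was 1.08 in Ctrl and 1.41 in V1PAKI.

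NR2F6, the broadly expressed relative, was the only one of the 6 genes above 1 FPKM in all 10 libraries. It was at 26.7 FPKM at d0, 42.2 at d4, 53.1 at d10, 35.2 at d16D and 36.9 at d16V in Ctrl. In V1PAKI it was at 35.2 FPKM at d0, 47.7 at d4, 18.9 at d10, 43.2 at d16D and 28.8 at d16V. Its highest and its lowest value, 2.80-fold apart, were the 2 libraries of d10, and every stage overlapped with the next in order of the means. The largest of its fitted differences between stages was 0.53 (SE 0.42), from d0 to d4, and it was 0.18 without Ctrl d0 and 0.89 without V1PAKI d0. From d4 to d10 the fitted difference was -0.48 (SE 0.42), and it turned to 0.30 without V1PAKI d10. NR2F6 made up over 97% of the summed FPKM of the 4 coding genes at d0 and d4, and between 35.3% (Ctrl d16D) and 47.2% (Ctrl d16V) at day 16. The summed FPKM of the 4 genes went from 26.7 at Ctrl d0 to 99.6 at Ctrl d16D, and from 35.2 to 116 in V1PAKI.

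**Figure D3:**
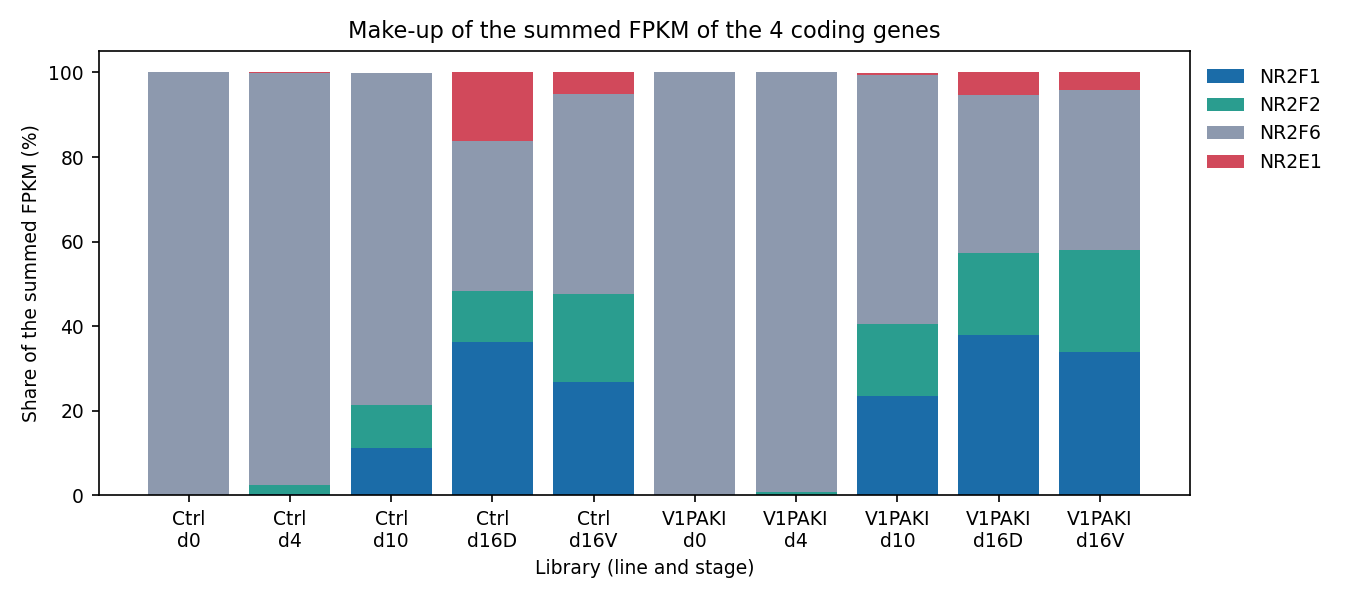
Share (%) of NR2F1, NR2F2, NR2F6 and NR2E1 in the summed FPKM of the 4 coding genes, as stacked bars for each of the 10 libraries. NR2F6 fills nearly the whole bar at d0 and d4, and NR2F1 holds between 26.9% and 37.9% at day 16.

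From d10 on the antisense RNAs stood at under 4% of the FPKM of their neighbours. NR2F1-AS1 was at 0.0479 FPKM at d0, 0.0300 at d4, 0.195 at d10, 0.714 at d16D and 0.505 at d16V in Ctrl. In V1PAKI it was at 0.0652 FPKM at d0, 0.0373 at d4, 0.287 at d10, 1.41 at d16D and 0.611 at d16V. From d10 on it had the same order of stages as NR2F1, d10 below d16V below d16D, at 1.98% to 3.80% of the FPKM of NR2F1. At Ctrl d4 it was at 21.6% of NR2F1, and at d0 in both lines and at V1PAKI d4, where NR2F1 was listed at 0, NR2F1-AS1 was not. The 158 bases exonic in both genes make up 2.05% of the exonic bases of NR2F1-AS1. Strand assignment is not stated, and the part of NR2F1 fragments in the level of NR2F1-AS1 was not tested.

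NR2F2-AS1 was listed at 0 at d0 in both lines and never reached 1 FPKM. In Ctrl it was at 0.0260 FPKM at d4, 0.0570 at d10, 0.220 at d16D and 0.607 at d16V. In V1PAKI it was at 0.00468 FPKM at d4, 0.0600 at d10, 0.536 at d16D and 0.593 at d16V. Its highest stage was d16V in both lines, above d16D by 2.76-fold in Ctrl but by only 1.11-fold in V1PAKI. The 4 libraries of the arms did not overlap, unlike those of NR2F2, but values under 1 FPKM have no known error. It stood at 0.816% to 3.75% of the FPKM of NR2F2 from d10 on. Both antisense RNAs missed the filter and have no fitted difference.

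NR2E1, the receptor of forebrain neural stem cells, was the latest of the 4 coding genes to reach 1 FPKM. It was at 0 FPKM at d0, 0.0127 at d4, 0.0549 at d10, 16.3 at d16D and 4.09 at d16V in Ctrl. In V1PAKI it was at 0 FPKM at d0, 0 at d4, 0.133 at d10, 6.29 at d16D and 3.24 at d16V. It reached 1 FPKM only in the 4 libraries of day 16, and the d16D libraries were above the d16V libraries with no overlap. Its level at d16V was 3.98-fold lower than at d16D in Ctrl and 1.94-fold lower in V1PAKI. The fitted differences were 0.0091 (SE 0.33) from d0 to d4, 0.12 (SE 0.33) from d4 to d10, 3.36 (SE 0.33) from d10 to d16D, 2.09 (SE 0.33) from d10 to d16V and -1.27 (SE 0.33) between the arms. Leaving out V1PAKI d16D moved the d10 to d16D difference to 3.96 and that between the arms to -1.87, and leaving out Ctrl d16D moved them to 2.76 and -0.67.

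**Figure D4:**
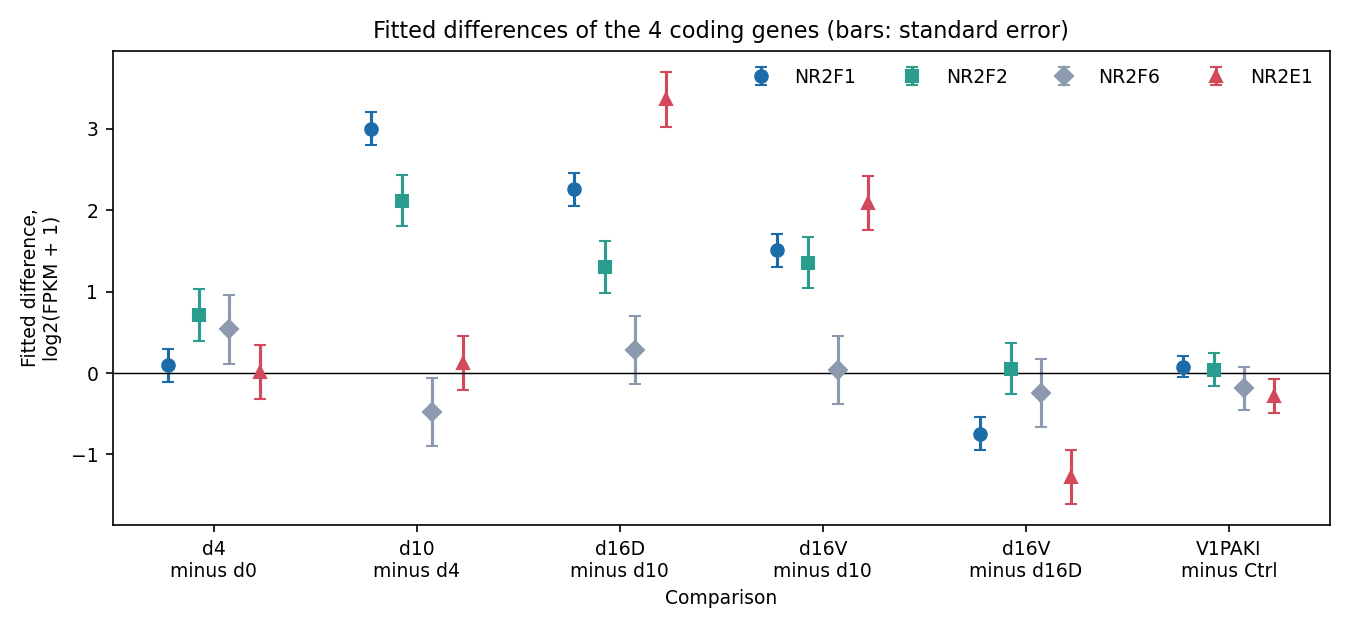
Fitted differences on the log2(FPKM + 1) scale for the 4 coding genes in 6 comparisons, with bars for the standard error. NR2F1 and NR2F2 are higher at d10 than at d4, NR2E1 is higher at day 16 than at d10, and the differences between the lines lie between -0.28 and 0.077.

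In limma, at a Benjamini-Hochberg adjusted p below 0.05 over all 15779 genes, 0 of the 4 genes in the fit passed from d0 to d4 (0 also at an unadjusted p below 0.05), against 0.818% of all genes. From d4 to d10 NR2F1 and NR2F2 passed, both higher, against 1.44% of all genes. NR2F1 and NR2E1 passed from d10 to d16D, against 0.932% of all genes, and from d10 to d16V, against 0.811%, each time higher. Between d16D and d16V 0 of 4 passed, against 0.361% of all genes, with NR2F1 and NR2E1 lower at an unadjusted p below 0.05. Nothing is read from these counts, since the genes were picked with these differences known, and NR2F1, NR2F2 and NR2E1 passed the filter only through d10 or day 16. The 2 comparisons with d10 share its libraries.

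The calls rested on few libraries. How they moved is given as a description of the fit and not as support for the preselected genes. The NR2F2 call from d4 to d10 was kept in 2 of the 10 fits that left out 1 library, and the NR2E1 call from d10 to d16V in 2. The NR2F1 call from d4 to d10 was lost without Ctrl d4, V1PAKI d4 or V1PAKI d10, while its call from d10 to d16D was kept in all 10. The NR2F1 call from d10 to d16V was lost in 6 of the 10, those without a d4, d10 or d16V library of either line. The NR2E1 call from d10 to d16D was lost without Ctrl d10 or V1PAKI d10. With a pseudocount of 0.1 the calls of NR2F1 from d10 to both arms were lost, and with no filter those of NR2F2 (d4 to d10) and NR2E1 (d10 to both arms) and that of NR2F1 from d10 to d16V. From d10 to d16V the NR2E1 call was also lost with a filter at 5 FPKM and the NR2F1 call with TPM, at an unchanged pseudocount and filter. Numbers were written differently in the day 16 columns than in the earlier ones for 618 other genes, so a separate processing run and the step from d10 to day 16 cannot be told apart.

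Over the 5 stages none of the 4 genes in the fit differed between the lines in limma (0 of 4, 0 also at an unadjusted p below 0.05, against 0.019% of all genes called). The fitted difference, V1PAKI minus Ctrl, was 0.077 (SE 0.13) for NR2F1, 0.043 (SE 0.20) for NR2F2, -0.19 (SE 0.26) for NR2F6 and -0.28 (SE 0.21) for NR2E1. For NR2F1 and NR2F2 the sign turned with a pseudocount of 0.1. For NR2F2 it also turned without either d16D library, and for NR2F6 without either d10 library. Without either d16D library the NR2E1 difference was -0.044.

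At single stages the lines were compared without a test. A gene was counted where a library of the stage had 1 FPKM or more, and called where log2(FPKM + 1) differed by 1 or more. At d0 and d4 only NR2F6 reached that level, and it did not differ by 1 (4.55% and 1.65% of all genes did). At d10 1 of 3, NR2F6, was lower in V1PAKI, by 2.80-fold (-1.44), against 11.2% of all genes. NR2F1, at 7.52 and 7.56 FPKM, had nearly the same level in both lines there. At d16D 1 of 5, NR2E1, was lower in V1PAKI, by 2.59-fold (-1.24), against 8.96% of all genes. NR2F2 was 1.86-fold and NR2F1-AS1 1.98-fold higher in V1PAKI at this stage, both short of the threshold, as was NR2F2-AS1, with 0.220 and 0.536 FPKM. At d16V 0 of 4 differed by 1, against 2.9% of all genes.

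At d16D neural markers were also lower in V1PAKI. The 8 neural progenitor markers summed to 575 FPKM in Ctrl and 345 in V1PAKI, and the 8 neuron markers to 222 and 91.8 FPKM. At d16V, where NR2E1 was 1.26-fold lower in V1PAKI, the progenitor markers summed to 561 and 577 FPKM and the neuron markers to 148 and 124 FPKM. At d10, where NR2F6 was lower, the progenitor markers summed to 215 and 278 FPKM, with 8 and 5 of the 8 at 1 FPKM or more, and the neuron markers to 40.0 and 23.4 FPKM. The part of cell make-up in these differences was not tested.

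The other genes of these pathways came from 6 lists with 95 genes, 76 of them in the fit, that were drawn up with earlier results of these data known. Their counts and medians are therefore a description, and no excess over all genes is read from them. From d0 to d4 2 genes rose and 1 fell (median 0.19, against 0.0020 for all genes, of which 0.818% were called). CYP26A1, which breaks down retinoic acid, rose by 3.75 (SE 0.45, limma adjusted p = 0.0240), and FGF8, a signal that represses Nr2f1 in mouse cortex, rose by 1.52 (SE 0.22, 0.0371), while the FGF target ETV5 fell (-1.67, SE 0.27, 0.0438). From d4 to d10 7 rose and 0 fell (median 0.23, against -0.011, with 1.44% of all genes called). LHX2, a selector gene of cortex, rose by 4.08 (SE 0.55, limma adjusted p = 0.0229) and FGF8 by 2.44 (SE 0.22, 0.0125). PAX2, a gene of optic stalk and midbrain that NR2E1 is known to repress in mouse retina, rose by 2.60 (SE 0.30, 0.0166). MEIS2 and MEIS1, homeobox genes of the retinoic acid list, rose by 1.43 (SE 0.22, 0.0329) and 1.22 (SE 0.22, 0.0487). ETV5, which had fallen from d0 to d4, was among the 7 (1.51, SE 0.27, limma adjusted p = 0.0450). Without any 1 of the d0, d4 or d16V libraries 0 genes passed from d0 to d4, and without Ctrl d4, V1PAKI d4 or V1PAKI d10 0 passed from d4 to d10.

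From d10 to d16D 5 of the 76 rose and 0 fell (median 0.22, against 0.028, with 0.932% of all genes called). They included EMX2, a homeobox gene that patterns cortex along the same axis as NR2F1 (3.53, SE 0.26, limma adjusted p = 0.00359), DMRTA2 (3.05, SE 0.29, 0.00605) and the Notch ligand JAG1 (1.40, SE 0.19, 0.0236). From d10 to d16V 2 rose and 0 fell (median 0.034, against 0.036, with 0.811% of all genes called). Among the 2 was the progenitor filament gene NES, by 1.63 (SE 0.26, limma adjusted p = 0.0397). Between the arms 1 was higher and 4 were lower at d16V (median -0.11, against 0.012, with 0.361% of all genes called). PAX2 was higher by 2.17 (SE 0.30, limma adjusted p = 0.0369), and EMX2 (-2.86, SE 0.26, 0.00954), DMRTA2 (-2.59, SE 0.29, 0.0145) and ALDH1A3, which makes retinoic acid (-2.33, SE 0.30, 0.0340), were lower. Without V1PAKI d16D 8 genes passed from d10 to d16D and 1 between the arms, without V1PAKI d10 1 passed from d10 to d16D, without a d10 or d16V library of either line 0 passed from d10 to d16V, and without either d16V library 0 passed between the arms. Between the lines 0 of 76 passed in limma, against 0.019% of all genes, with 3 of the 76 at an unadjusted p below 0.05. Of the 9 measured nuclear receptor relatives and the 17 measured cofactors, 0 passed in any of the 6 comparisons in limma, with at most 2 and 4 at an unadjusted p below 0.05. Over all 15779 genes that unadjusted p was reached by 1870 (d0 to d4), 2397 (d4 to d10), 2677 (d10 to d16D), 3140 (d10 to d16V), 842 (between the arms) and 390 (between the lines).

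The genes whose profile over the 10 libraries was most like that of each receptor were taken from 9596 genes that reach 5 FPKM somewhere, by Pearson's r of log2(FPKM + 1). The 10 points share stages and lines, so r describes a shared course only. For NR2F1 they were SORCS2, a sortilin-type receptor (0.994), ZBTB16, a zinc finger factor of neural progenitors (0.992), RTL8B (0.985), ZFHX4 (0.982) and the ligand WNT5B (0.979). For NR2F2 they were SORCS2 (0.985), ZFAND3 (0.984), RTL8B (0.982), the apical polarity gene CRB2 (0.980) and SCUBE3 (0.975). SORCS2 and RTL8B stood in both sets, and r between NR2F1 and NR2F2 was 0.981. SORCS2 went from 0.167 and 0.553 FPKM (Ctrl and V1PAKI) at d0 to 8.13 and 8.81 FPKM at d16D.

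NR2E1 had neuronal and forebrain genes among the 5 most alike, which included TPPP3 (0.990), the neuronal factor NHLH1 (0.987), the cortical POU factor POU3F3 (0.982) and the ephrin receptor EPHA3 (0.976). For NR2F6 the most alike were the Mediator subunit MED27 (0.972), the fatty acid transporter SLC27A4 (0.963), the autophagy gene GABARAPL1 (0.956), RABAC1 (0.951) and LASP1 (0.950). All 5 had, like NR2F6, their lowest value of the 10 libraries in V1PAKI d10, with LASP1 at 37.3 FPKM in Ctrl and 14.2 in V1PAKI. They were picked for likeness over these same libraries, so the shared low is no separate result. The r of NR2F6 with the other 3 receptors lay between -0.056 and 0.032.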

How the data were processed

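Bulk RNA of 10 H9 libraries was analysed from 1 deposited table of FPKM values per gene symbol. Per the submitters' processing notes the authors used cutadapt 1.18, HISAT2 2.1.0 and Cufflinks with GRCh38. The gene annotation, filters and strand setting are not given there. All 10 columns matched a sample by title. FPKM summed to between 200509 and 256270 per library. Each library held 272 to 328 values between 0 and 0.001 FPKM, below what whole reads would give, so the depth is unknown and no counting intervals or floors were computed. A value of 0 can be a failed estimate and is described as listed at 0. No pair of libraries had the same values.

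Of 20601 genes above 0 in every library, 618 were written with over 10 digits in all 6 libraries before day 16 and in none of the 4 of day 16, and 0 the other way round. The day 16 columns may therefore have been made separately, and comparisons of day 16 with d10 cannot be told apart from such a step. All 52 values above 0 of the 6 genes had over 10 digits.

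Values were analysed as log2(FPKM + 1), which understates differences of low genes. Genes reaching 1 FPKM in 2 or more libraries (15779) entered a limma fit (version 3.58.1, R 4.3.3, eBayes with trend). Its terms were the 5 stages and the genotype, which left 4 residual degrees of freedom (7.77 after moderation). Tests were two-sided, with Benjamini-Hochberg adjustment over all genes and a threshold of 0.05. The p-values and standard errors rest on the spread left after these terms. In it, interaction of line and stage cannot be told apart from noise of single libraries. The fit was also run on simulated data with the same noise in all genes and no interaction of line and stage. That run therefore does not show how the fit behaves on these data. Alternatives were a pseudocount of 0.1, no filter, a filter at 5 FPKM, median-of-ratios scaling, TPM and leaving out each library. The genes and all lists were chosen with earlier results of these data known. Named were the 6 genes, up to 2 passing genes per list and comparison with the largest change, and the 5 genes most alike in profile. Some genes that this rule names are not reported here. Coordinates came from GENCODE 29 and sequences from RefSeq (GRCh38.p14).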

Additional observations from a re-analysis of the deposited data

Results flagged for a closer look

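NR2F6 moved in opposite directions in the 2 lines after d10, by at least 0.5 on the log2 scale in each. From d10 to d16D it was lower by 1.51-fold in Ctrl (-0.58) and higher by 2.29-fold in V1PAKI (1.15), a difference of 1.73 between the lines. From d10 to d16V it was lower by 1.44-fold in Ctrl (-0.51) and higher by 1.52-fold in V1PAKI (0.58), a difference of 1.09. The differences were not tested, since each value is 1 library, and both share the d10 libraries, where V1PAKI stood at 18.9 and Ctrl at 53.1 FPKM.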

How the results depend on the processing

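The signs of the stage differences of NR2F1 from d4 on, of NR2F2 up to day 16 against d10 and of NR2E1 from d10 to both arms held under each of the 5 other settings and each library left out. The difference between the lines turned to -0.13 for NR2F1 and -0.081 for NR2F2 with a pseudocount of 0.1. The NR2F2 difference from d0 to d4 was 2.79 with that pseudocount and passed. Leaving out each library in turn changed signs as follows. From d0 to d4 NR2F1 ran from -0.072 to 0.26 and NR2E1 from -0.17 to 0.19, and from d4 to d10 NR2E1 from -0.12 to 0.36. NR2F6 ran from -1.27 to 0.30 (d4 to d10), -0.50 to 1.07 (d10 to d16D), -0.75 to 0.82 (d10 to d16V), -0.55 to 0.048 (between the arms) and -0.33 to 0.13 (between the lines). NR2F2 ran from -0.45 to 0.55 between the arms and from -0.16 to 0.17 between the lines. TPM moved the median of all genes by up to 0.15 (from 0.036 to 0.18 from d10 to d16V). TPM values were larger than FPKM here while pseudocount and filter stayed at 1, so 23573 genes entered instead of 15779. The TPM setting thus changed the scaling, the weight of the pseudocount and the filter together.

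Counts of pathway genes called, in the order d0 to d4, d4 to d10, d10 to d16D, d10 to d16V and d16D to d16V, were 3, 7, 5, 2 and 5. With no filter they were 0, 0, 2, 0 and 2. With a filter at 5 FPKM they were 4 from d4 to d10, 3 from d10 to d16D and 0 between the arms. Between the arms they were 0 with a pseudocount of 0.1 and 2 with TPM. Leaving out each library gave ranges of 0 to 5, 0 to 10, 1 to 8, 0 to 6 and 0 to 5, with 0 in all fits between the lines. A lone library left at a stage is assumed to vary like the rest.

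All genes called numbered 129, 227, 147, 128 and 57, and 3 between the lines. They were 11, 3, 34, 64 and, between the lines, 0 with no filter. With a filter at 5 FPKM they were 59 (d0 to d4), 82 (d10 to d16D), 2 (between the arms) and 0 (between the lines). With a pseudocount of 0.1 they were 91 (d10 to d16D) and 7 (between the arms), and with TPM 75 (d0 to d4), 28 (between the arms) and 11 (between the lines). The 145 higher and 82 lower genes from d4 to d10 became 223 and 33 with TPM and 183 and 33 with a pseudocount of 0.1. Leaving out each library gave 0 to 195, 0 to 460, 21 to 340, 3 to 691, 0 to 63 and 0. Unknown depth leaves values under 1 FPKM, such as both antisense RNAs, with no known error. The fit already takes stage differences within lines and line differences within stages, and no further block by replicate number was fitted, since the labels give no such numbers.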

Other observations

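Several corepressors that COUP-TFs and NR2E1 are known to recruit were present at every stage, also where NR2F1 and NR2E1 were listed at 0. KDM1A, a histone demethylase recruited by NR2E1, lay between 41.2 and 63.6 FPKM over the 10 libraries, HDAC1 between 24.1 and 38.3, RCOR1 between 7.25 and 9.72 and NCOR1 between 8.69 and 11.3. ATN1, an atrophin that binds these receptors, had the widest range of the well expressed cofactors, from 13.8 to 56.3 FPKM. The COUP-TF partners BCL11A and BCL11B peaked at 1.33 and 0.997 FPKM, and ZFPM2 at 1.37 FPKM.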
